A study of Mus musculus with 20 samples.

Results

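Hearts of female mice on a high-fat diet were compared with hearts of female mice on chow, with 5 libraries in each group out of 20 in the series. All animals were wild-type C57BL/6 mice of 12 weeks, with no transgene or deletion named in any group. The groups were taken from the labels and not from measured values: the labels name the groups Chow and PA, and PA was taken to mean the diet rich in fat because the series text speaks of no diet other than chow and HFD. The labels do not give the composition or length of the diet, the hour of collection or a batch, and do not say that each library came from a separate animal, so p-values reflect only how much these samples vary. Male hearts of the same strain and age, 5 on high fat and 4 on chow, entered the same model, and their values are set beside those of the females.

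The heart draws most of its energy from fatty acids and takes up glucose, lactate, ketone bodies and amino acids as further fuels. Fatty acids that enter the cell activate the nuclear receptor PPAR-alpha, which raises transcription of genes for their uptake, transport into mitochondria and oxidation. One of its targets, the kinase Pdk4, switches off pyruvate dehydrogenase and so holds back the oxidation of glucose.

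High-fat females 4 and 5 stood apart from the other libraries, and each result below was therefore taken from 2 fits, the first with all 5 high-fat females and the second without females 4 and 5. Relative to the mean of the chow females, each 10 percentage points of GC content added 0.60 and 0.87 log2 units to a gene's level in these libraries, and -0.09 to 0.11 in the other 17. In the 1190 genes with a GC content under 40%, their median differences were -1.27 and -1.90, against 0.09, -0.02 and -0.18 in high-fat females 1, 2 and 3. Totals in the female libraries ran from 58576741 to 78418366 counts, and 22800 and 22202 genes had a count in females 4 and 5 against 24044 to 24694 in the other 8. Xist, the RNA that coats the inactive X chromosome, stood at 114 to 144 CPM in 8 female libraries and at 18 and 10.6 CPM in females 4 and 5, and the Y-linked Kdm5d had no count in any of the 10. CPM are counts relative to the library size after TMM adjustment, a scale on which 3 counts are worth 0.0385 to 0.0503 CPM in these libraries.

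**Figure D1:**
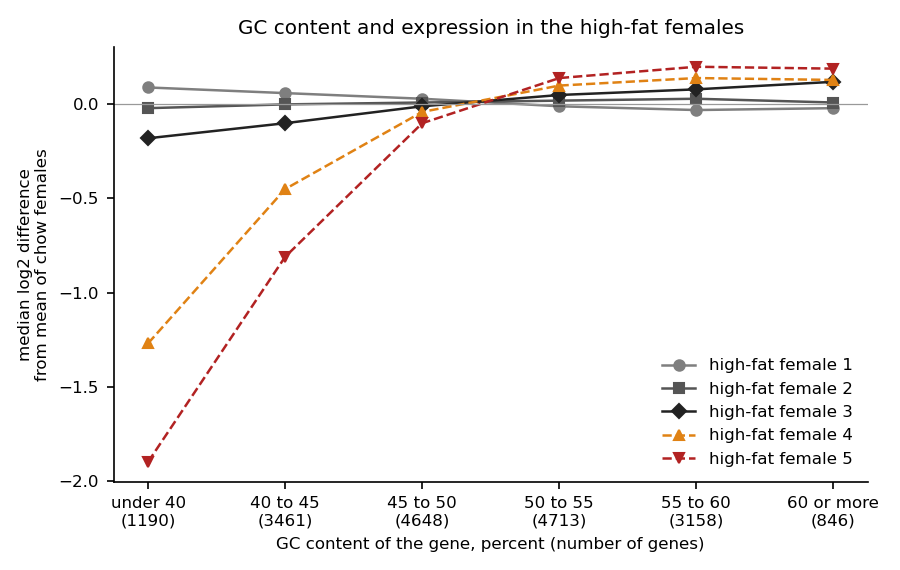
Median log2 difference of each high-fat female from the mean of the chow females, by the GC content of the gene in percent, with 1 line per library. The lines of females 1, 2 and 3 lie between -0.18 and 0.12 in every bin, and those of females 4 and 5 climb from -1.27 and -1.90 to 0.13 and 0.19.

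A gene was called where its adjusted p was under 0.05 by the quasi-likelihood test of edgeR, adjusted by Benjamini-Hochberg over every gene tested. With all 5 high-fat females, 301 genes were called higher (1.67% of 18069) and 156 lower (0.863%). Without females 4 and 5 the counts were 449 higher (2.45% of 18297) and 457 lower (2.50%). In both fits and in the same direction, 196 genes were called higher (1.09% of the 18064 genes tested in both) and 123 lower (0.681%), and no gene was called with opposite signs. The 2 fits share every chow library and high-fat females 1 to 3, so agreement of sign between them is largely built in. These 319 genes carried mostly small changes: 153 of the 196 rises and 76 of the 123 falls were under 0.5 log2 units in both fits, and 9 rises and 14 falls were over 1 in both. All 5 high-fat females lay above every chow female in 166 of the 196 rises (84.7%) and below in 106 of the 123 falls (86.2%), against 2.62% and 1.90% of all genes tested. The 319 genes were selected on this contrast in these libraries, so their separation describes them and is not further support for the calls.

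GC content also followed the calls, with a median of 54.5% in the genes that rose in both fits, 45.8% in those that fell and 49.7% over all genes tested in both. When each library's dependence on GC was put in the fit as an offset, 176 of the 319 genes were called in both fits, 121 higher and 55 lower, and in these the medians were 53.8% and 53.9%. Genes named below that were not called in both fits with this offset are marked as such. In whole-heart RNA, fewer cells of a type and less RNA per cell cannot be told apart.

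**Figure D2:**
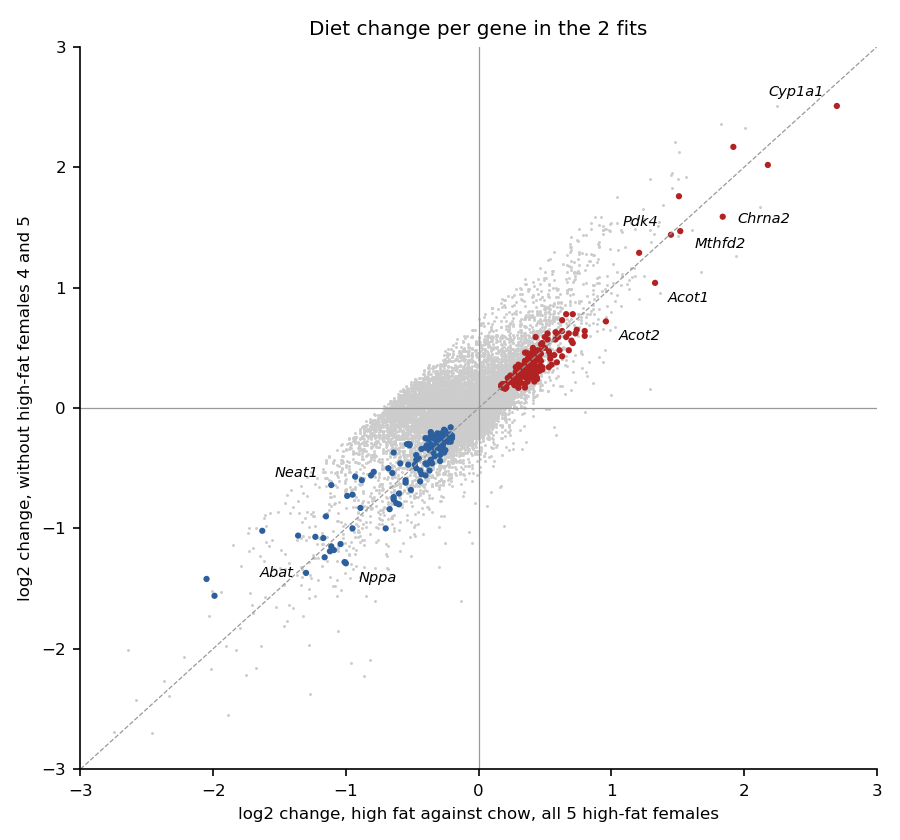
Log2 change from chow to high fat in females with all 5 high-fat libraries (horizontal) against the change without high-fat females 4 and 5 (vertical), for 18064 genes in grey, with the 196 rises and 123 falls called in both fits in red and blue and the dashed line marking equal values. The coloured genes have the same sign in both fits by definition, and 7 genes lie beyond the axes.

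Genes of fatty acid use rose in both fits, among them the kinase that restrains glucose oxidation. Of 31 PPAR-alpha targets that passed the filter on low counts (of 33 listed), 9 rose in both fits and none fell, with Pdk4, Acot1, Acot2, Decr1, Plin2, Hadha, Ech1 and Cpt2 among the rises. The median change of the list was 0.37 with all 5 females and 0.18 without females 4 and 5, against -0.02 and -0.00 over all genes tested. By library, the list's median was -0.09 to 0.17 in the chow females, with chow female 5 the highest. It was 0.24, 0.20 and 0.23 in high-fat females 1, 2 and 3 and 0.49 and 0.57 in females 4 and 5. Summed over the list, the groups overlapped, with 24955 to 29604 CPM in chow females and 28040.4 to 31449 CPM in high-fat females. Of the same list 14 rose with all 5 females, and without females 4 and 5 there were 9 that rose and 1, Lpl, that fell.

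Pdk4 stood at 350.2, 222, 288, 289.9 and 439 CPM in chow females 1 to 5 and at 1133, 703, 761, 777 and 955 CPM in high-fat females 1 to 5. The lowest high-fat library was above the highest chow library, and females 4 and 5 lay within the range of females 1 to 3. It rose by 1.45 ± 0.17 and 1.44 ± 0.17 log2 units (SE; adjusted p = 3.96e-04 with all 5 females and 1.42e-04 without females 4 and 5), and was called with each of the 10 libraries left out in turn.

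Acot1 and Acot2 encode cytosolic and mitochondrial thioesterases that split long-chain acyl-CoA, and they are near-identical neighbours whose reads the counting may have shared between them. Acot2 stood at 51.4, 48.2, 50.7, 51.0 and 73.8 CPM on chow and at 97.1, 81.7, 93.0, 119 and 143 CPM on high fat. Chow female 5 was the highest of its group and females 4 and 5 the highest of theirs, without overlap of the groups. Its rise was 0.96 ± 0.14 with all 5 females and 0.72 ± 0.11 without females 4 and 5 (adjusted p = 0.00148 and 0.00122), and that of Acot1 was 1.33 ± 0.23 and 1.04 ± 0.21 (adjusted p = 0.00612 and 0.00818).

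In the mitochondrial oxidation pathway itself the changes were smaller. Of its 19 tested genes 3 rose in both fits, with a list median of 0.26 with all 5 females and 0.11 without females 4 and 5. These 3, Decr1, Hadha and Cpt2, are also on the list of PPAR-alpha targets and were counted there. The list's sum was 15928 to 18509 CPM on chow and 17698 to 22109.9 CPM on high fat, so the groups overlapped. Decr1, the reductase needed for unsaturated fatty acids, stood at 534, 493, 496, 514 and 572 CPM on chow and at 686, 641, 633, 851 and 838 CPM on high fat. The groups did not overlap, and females 4 and 5 were the highest. Its change was 0.48 ± 0.08 and 0.32 ± 0.05 (adjusted p = 0.00336 and 0.00134). Hadha, a subunit of the trifunctional protein, rose by 0.37 ± 0.07 and 0.22 ± 0.05, although without females 4 and 5 its call ended when high-fat female 2 was left out. Cpt2, the inner carnitine palmitoyltransferase, rose by 0.44 ± 0.09 and 0.24 ± 0.06 but was not called in both fits with the GC offset, and its call ended without chow female 4 in the first fit and without chow females 3 or 4 or high-fat females 1, 2 or 3 in the second. Slc25a20, Acaa2 and Hadhb were called only with females 4 and 5 included, and Echs1, the enoyl-CoA hydratase, fell only without them (log2 change -0.28, adjusted p = 0.00319).

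A few genes of peroxisomes, lipid storage and antioxidant defence rose as well. The lists share members, and Ech1 and Plin2 below were already counted among the PPAR-alpha targets. Of 20 genes of peroxisomal fatty acid oxidation 3 rose in both fits: Pex11a, which divides peroxisomes, by 0.54 and 0.44, Ech1, an isomerase of unsaturated acyl-CoA, by 0.44 and 0.25, and Crat, the carnitine acetyltransferase, by 0.35 and 0.17. The call of Pex11a held with each library left out. That of Ech1 ended in the second fit without chow female 4 or high-fat females 1, 2 or 3, and that of Crat ended without most single libraries and was not made in both fits with the GC offset. Among 28 genes for the uptake of fatty acids and for lipid droplets 2 rose, the monoglyceride lipase Mgll (0.44 and 0.34) and the droplet coat protein Plin2 (0.39 and 0.31; the second ended without high-fat female 3). Of 27 antioxidant genes 3 rose in both fits, among them Cat, the peroxisomal catalase (0.38 ± 0.07 and 0.26 ± 0.06), whose second call ended without high-fat females 2 or 3, and Ucp2, a mitochondrial carrier (0.80 ± 0.12 and 0.64 ± 0.10).

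Genes that build lipid also rose singly. Gpam, the mitochondrial acyltransferase that starts triglyceride synthesis, stood at 188, 183, 164, 168 and 180.4 CPM on chow and at 244, 236, 252, 268 and 276 CPM on high fat. Both groups were tight and did not overlap. Its rise was 0.53 ± 0.07 and 0.47 ± 0.07 (adjusted p = 0.00108 and 0.0014) and held with each library left out. Of 22 tested genes of triglyceride and phospholipid synthesis 3 rose in both fits (Gpam, Agpat4 and Agpat3). The second calls of Agpat4 and Agpat3 each ended when any 1 of high-fat females 1, 2 and 3 or of several chow females was left out, and Agpat3 was not called in both fits with the GC offset. The 3 of 23 fatty acid synthesis genes that rose were Acacb, whose product malonyl-CoA holds back mitochondrial fatty acid import (0.46 and 0.31), the malic enzyme Me1 (0.40 and 0.31) and Mid1ip1, which promotes acetyl-CoA carboxylase activity (0.42 and 0.30; the second call ended without high-fat females 2 or 3). None of 25 cholesterol genes was called in both fits. The smallest p values belonged to Lss (log2 change -0.44, adjusted p = 0.0824, and -0.30, adjusted p = 0.213) and to Mvk (-0.21, adjusted p = 0.3, and -0.39, adjusted p = 0.0321), so that Mvk was called lower without females 4 and 5.

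In both fits 2 glucose transporters and 2 enzymes of ketone body use fell. Slc2a1, the glucose transporter GLUT1, stood at 23.9, 22.9, 27.2, 24.0 and 20.5 CPM on chow and at 12.7, 16.3, 14.6, 18.2 and 16.6 CPM on high fat. Every high-fat library was below every chow library. It fell by 0.60 ± 0.10 and 0.71 ± 0.10 (adjusted p = 0.00601 and 0.00115). Slc2a4, the insulin-responsive transporter GLUT4, stood at 437, 429, 433, 427 and 422 CPM on chow and at 304, 327, 320.3, 392 and 416 CPM on high fat. The 2 highest of the high-fat group were females 4 and 5, with female 5 close to the lowest chow library. Its fall was 0.29 ± 0.07 with all 5 females (adjusted p = 0.0316), a call that ended without any 1 of the chow females or without high-fat females 2 or 3, and 0.44 ± 0.04 without females 4 and 5 (adjusted p = 1.69e-05). These were the only 2 of 27 glucose uptake and glycolysis genes called in both fits, and 4 more, Hk2, Pgam2, Ldhb and Eno3, were called lower without females 4 and 5 only.

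Of 9 tested ketone body genes 2 fell in both fits. Oxct1, which activates acetoacetate for oxidation in tissues that burn ketone bodies, stood at 1561, 1510.2, 1465, 1481 and 1513 CPM on chow and at 1247, 1187, 1126, 1188 and 1119.9 CPM on high fat. The spread within each group was small beside the gap between them, with female 4 inside the range of females 1 to 3 and female 5 just below it. It fell by 0.36 ± 0.05 and 0.35 ± 0.05 (adjusted p = 7.48e-04 and 6.21e-04). Bdh1, the 3-hydroxybutyrate dehydrogenase, stood at 59.6, 57.8, 80.4, 48.4 and 71.2 CPM on chow and at 26.3, 26.2, 33.3, 29.6 and 32.1 CPM on high fat, without overlap. It fell by 1.11 ± 0.25 and 1.15 ± 0.28 (adjusted p = 0.023 and 0.02). Its call ended without chow female 3 in the first fit and without high-fat females 1, 2 or 3 in the second, and its reads could not be separated from those of the antisense gene Gm15743.

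**Figure D3:**
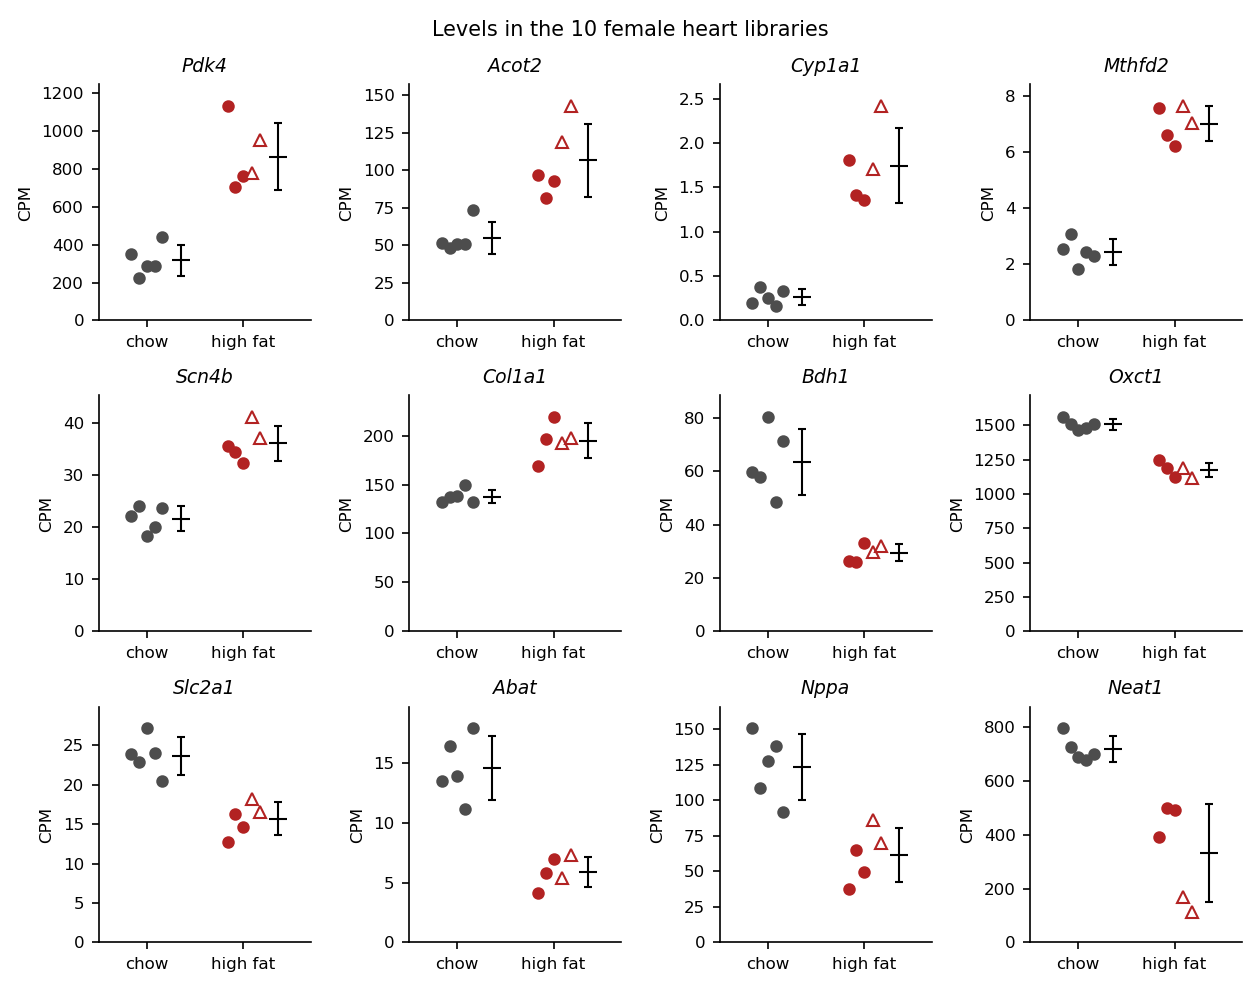
CPM of 12 genes in each female library on axes that start at 0, with chow in grey, high-fat females 1 to 3 as filled red points, high-fat females 4 and 5 as open red triangles, and bars for the mean ± SD of 5 libraries. In Pdk4, Acot2, Cyp1a1, Mthfd2, Scn4b and Col1a1 all high-fat libraries lie above all chow libraries, and in Bdh1, Oxct1, Slc2a1, Abat, Nppa and Neat1 all lie below.

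Abat, the transaminase that breaks down GABA, stood at 13.5, 16.4, 13.9, 11.1 and 17.9 CPM on chow and at 4.13, 5.82, 6.93, 5.36 and 7.26 CPM on high fat. The highest high-fat library was well under the lowest chow library. It fell by 1.30 ± 0.16 and 1.37 ± 0.18 (adjusted p = 6.66e-04 and 2.54e-04), and Gcat, a mitochondrial enzyme of threonine and glycine breakdown, fell by 0.64 ± 0.10 and 0.76 ± 0.11 (adjusted p = 0.00353 and 6.21e-04). Pcx, the pyruvate carboxylase that refills the tricarboxylic acid cycle, fell by 0.37 ± 0.10 and 0.52 ± 0.08, with a first call (adjusted p = 0.0477) that ended when any library other than high-fat female 5 was left out. Of 25 genes of branched-chain amino acid breakdown, only Aldh6a1 was called lower in both fits (-0.40 and -0.25), and with the GC offset its change with all 5 females was 0.03. Without females 4 and 5 there were 17 of the 25 called lower, among them Bckdhb and Dbt of the branched-chain keto acid dehydrogenase (-0.42 and -0.34). The median of that list was -0.20, -0.19 and -0.24 in high-fat females 1, 2 and 3 and -0.01 and 0.04 in females 4 and 5.

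Genes of the amino acid response rose together with an enzyme of mitochondrial folate metabolism. ATF4 is a transcription factor that is translated when amino acids run short or mitochondria are stressed, and it raises genes of amino acid synthesis and one-carbon metabolism. Mthfd2, the mitochondrial methylene-tetrahydrofolate dehydrogenase, stood at 2.56, 3.08, 1.83, 2.44 and 2.29 CPM on chow and at 7.57, 6.59, 6.22, 7.64 and 7.02 CPM on high fat. All 5 high-fat libraries were above every chow library, with female 5 inside the range of females 1 to 3 and female 4 just above it. It rose by 1.52 ± 0.20 and 1.47 ± 0.22 log2 units (adjusted p = 9.93e-04 and 0.00115). Asns, the asparagine synthetase, stood at 3.05, 3.20, 3.49, 3.13 and 2.47 CPM on chow and at 4.43, 4.91, 4.86, 5.47 and 5.68 CPM on high fat, without overlap, and rose by 0.73 ± 0.11 and 0.62 ± 0.12 (adjusted p = 0.00336 and 0.00673).

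Of 29 tested ATF4 and integrated stress response genes 4 rose and 1 fell in both fits, with list medians of 0.11 and 0.10. The other rises were Psat1 of serine synthesis (0.80 ± 0.13 and 0.60 ± 0.13; the second call ended without high-fat females 2 or 3) and the transcription factor Atf5 (0.45 and 0.33; the second call ended without high-fat female 1). Cth, the lyase that makes cysteine from cystathionine, fell: it stood at 3.60, 3.84, 3.45, 4.51 and 3.27 CPM on chow and at 1.95, 2.42, 1.94, 1.96 and 1.81 CPM on high fat, without overlap. Its change was -0.89 ± 0.13 and -0.83 ± 0.16 (adjusted p = 0.00242 and 0.00469), and it was not called with all 5 females under the GC offset (adjusted p = 0.0791). Atf4 itself (0.17 and 0.12), Ddit3 (0.11 and 0.06) and Trib3 (0.45 and 0.29) were not called. Of 29 genes of the unfolded protein response none was called in both fits, and the smallest p values belonged to Sdf2l1 (-0.67, adjusted p = 0.0544, and -0.74, adjusted p = 0.0332) and to Hspa5, the chaperone BiP (-0.45, adjusted p = 0.0548, and -0.36, adjusted p = 0.107).

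The region upstream of Asns is shown because ATF4 is known to act on this gene through a composite element for C/EBP and ATF proteins. RefSeq's promoter table (build GRCm38.p6) held 4 of the 5 list genes called in both fits, and the letters TGATGNAA, searched on both strands of the 250 bases before the gene start, were found in 1 of the 4. The same letters were found in 1056 of 27025 genes with an entry (3.91%). The match begins 23 bases upstream of the start and is in capitals, in the window chr6:7693210-7693459 on the minus strand:
Asns: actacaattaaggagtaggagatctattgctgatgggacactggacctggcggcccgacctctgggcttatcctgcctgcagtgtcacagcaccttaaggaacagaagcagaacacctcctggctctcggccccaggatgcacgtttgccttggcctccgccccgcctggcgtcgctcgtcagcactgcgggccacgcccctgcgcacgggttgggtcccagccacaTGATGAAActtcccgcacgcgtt
A match of letters is a description of this window and was not tested for binding.

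Cyp1a1, a cytochrome P450 that is induced by ligands of the aryl hydrocarbon receptor, showed the largest rise among genes of at least 1 CPM called in both fits, at a low level. It stood at 0.197, 0.375, 0.255, 0.158 and 0.333 CPM on chow and at 1.81, 1.42, 1.36, 1.71 and 2.42 CPM on high fat. The lowest high-fat library was more than 3 times the highest chow library. The log2 change was 2.70 ± 0.23 and 2.51 ± 0.22 (adjusted p = 1.65e-05 and 1.03e-05). The other 8 tested genes on the list of aryl hydrocarbon receptor targets were not called in either fit, and the list's medians were -0.17 and 0.00. The window upstream of the gene is shown with the receptor's core letters GCGTG, searched on both strands, which 30.9% of all promoters of this length hold (8338 of 27025). The match, in capitals, begins 54 bases before the start, in the window chr9:57697363-57697612 on the plus strand in GRCm38.p6:
Cyp1a1: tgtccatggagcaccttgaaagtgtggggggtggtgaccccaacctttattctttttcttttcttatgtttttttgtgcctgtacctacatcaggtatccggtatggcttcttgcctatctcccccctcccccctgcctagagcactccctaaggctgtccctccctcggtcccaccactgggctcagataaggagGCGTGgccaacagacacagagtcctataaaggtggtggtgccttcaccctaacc

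Of the 49 lists, that of the extracellular matrix had the most genes called in both fits by number, and it was also among the longest. Shorter lists with calls were the endothelial markers (3 of 7) and the PPAR-alpha targets (9 of 31). Over all genes tested in both fits 1.09% were called higher. Of 48 extracellular matrix genes 16 rose in both fits and none fell, and 12 of the 16 were also called in both fits with the GC offset (all but Col5a1, Col6a1, Hspg2 and Lamc1). The list's medians were 0.27 and 0.24, and by library 0.14, 0.24, 0.36, 0.21 and 0.27 in high-fat females 1 to 5, so that females 4 and 5 lay within the range of the others. Summed over the list, chow females held 5389.8 to 6113 CPM and high-fat females 6616 to 8066 CPM.

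Col1a1, a chain of fibrillar type I collagen, stood at 132, 137, 138, 149 and 132 CPM on chow and at 169, 196, 219, 192 and 197 CPM on high fat. High-fat female 1 was the lowest of its group and still above every chow female. The change was 0.50 ± 0.07 in each fit (adjusted p = 0.00108 and 0.00129). Its partner chain Col1a2 rose by 0.47 ± 0.06 and 0.45 ± 0.06 (adjusted p = 4.47e-04 and 4.51e-04). Col3a1, type III collagen, stood at 483, 429, 456, 480.4 and 438 CPM on chow and at 618, 681, 812, 622 and 539.6 CPM on high fat. It rose by 0.52 ± 0.08 and 0.62 ± 0.07 (adjusted p = 0.00432 and 1.34e-04), with female 3 highest and female 5 lowest in the high-fat group and no overlap with chow.

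The other matrix genes that rose in both fits came from several layers of the matrix. They were the basement membrane chains Col4a1 (0.37 and 0.41), Col4a2 (0.32 and 0.33), Lamc1 (0.25 and 0.23), Nid1 (0.30 and 0.34) and the proteoglycan Hspg2 (0.38 and 0.40), and Col5a1, Col6a1, Col6a2 and Col6a3 (0.29 to 0.41 and 0.31 to 0.48). Loxl1 and Loxl2, oxidases that cross-link collagen and elastin, rose by 0.46 and 0.43 with all 5 females and by 0.35 and 0.41 without females 4 and 5. Sparc, which binds collagen, and Mmp2, a gelatinase, rose by 0.44 and 0.35 with all 5 and by 0.48 and 0.31 without females 4 and 5. Among the members not called in either fit, chosen after their values were seen, Postn had 0.03 and 0.46 (adjusted p = 0.958 and 0.0595), Tnc 0.35 and 0.41 (adjusted p = 0.404 and 0.323), and Lox -0.60 and -0.26 (adjusted p = 0.208 and 0.471). When the female libraries were fitted alone, only Col1a1 and Col1a2 of the 16 were called both with all 5 females and without females 4 and 5. Of the 16 rises 8 were called with each library left out in turn. The other 8 were Col4a2, Col5a1, Col6a1, Col6a2, Hspg2, Lamc1, Mmp2 and Loxl2, each of which lost its call without high-fat female 3 in the second fit. In the first fit Col6a1 lost it without chow females 1, 2, 3 or 5, Hspg2 without chow females 3, 4 or 5 or high-fat females 2 or 3, Lamc1 without chow female 5 or high-fat female 3, and Loxl2 without chow females 2, 4 or 5 or high-fat females 3 or 4.

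**Figure D4:**
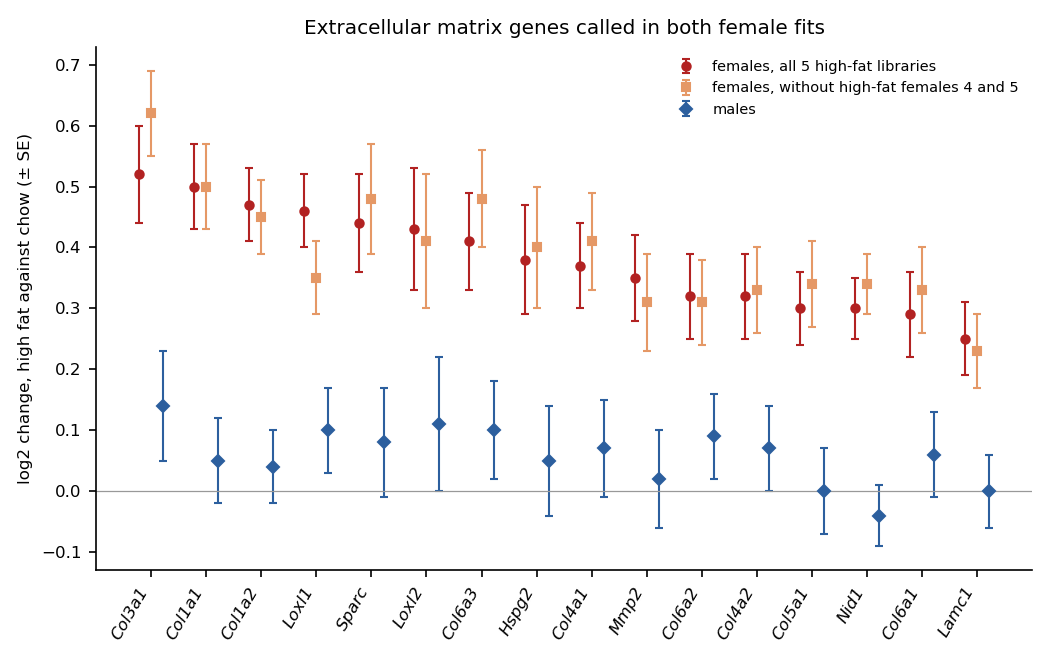
Log2 change ± SE on the high-fat diet of the 16 matrix genes called in both fits, for females with all 5 high-fat libraries, females without libraries 4 and 5, and males. The female values lie between 0.23 and 0.62 in both fits and the male values between -0.04 and 0.14.

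Some markers of stromal cells rose beside the matrix genes, and their part in that result was not tested. Of 7 fibroblast markers 2 rose in both fits, and these were Col1a1 and Col1a2 themselves. The summed level of the 7 was 815 to 917 CPM in chow and 959 to 1075 CPM in high-fat females. That sum includes the 2 collagens, so it does not stand apart from the matrix result. Their means went from 138 to 195 CPM (Col1a1) and from 218 to 301 CPM (Col1a2). Of 7 endothelial markers 3 rose in both fits, the junction protein Cdh5 (0.29 ± 0.05 and 0.30 ± 0.06), the receptor Tie1 (0.28 and 0.26) and the adhesion protein Pecam1 (0.20 and 0.16, without a call in both fits under the GC offset). In the second fit the call of each ended without high-fat female 3, that of Tie1 also without chow female 4 or high-fat female 2, and that of Pecam1 also without chow females 1, 2 or 4 or high-fat females 1 or 2; in the first fit that of Pecam1 ended without chow female 4. Their sum was 1276 to 1351 CPM in chow and 1406 to 1535 CPM in high-fat females. None of 7 smooth muscle and pericyte, 7 macrophage, 4 lymphocyte, 5 mesothelial, 4 neural or 6 white adipocyte markers was called in either fit. The white adipocyte markers summed to 0.943 to 3.15 CPM on chow and 1.13 to 4.34 CPM on high fat, with Adipoq at 0.0282 to 0.158 CPM and 0.0756 to 0.455 CPM. Of 8 cardiomyocyte markers 1 fell in both fits and 4 without females 4 and 5. Their sum was 94794 to 102609 CPM on chow, 85108, 84749.7 and 92108 CPM in high-fat females 1, 2 and 3, all below every chow female, and 96501 and 97692 CPM in females 4 and 5. No marker of lung passed the filter.

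Among genes of excitation and contraction a sodium channel subunit rose and a troponin and the atrial natriuretic peptide fell. Scn4b, the beta-4 subunit of the cardiac sodium channel, stood at 22.2, 24.0, 18.3, 20.1 and 23.8 CPM on chow and at 35.6, 34.5, 32.3, 41.2 and 37.1 CPM on high fat. The groups were well apart, with female 4 the highest. It rose by 0.74 ± 0.10 and 0.65 ± 0.10 (adjusted p = 9.50e-04 and 0.00129). Of 37 tested calcium cycling and ion channel genes 2 more rose in both fits, the T-type calcium channel Cacna1h (0.68 ± 0.13 and 0.62 ± 0.14; the second call ended without high-fat female 3) and the sodium channel Scn4a (0.57 and 0.44, without a call in both fits under the GC offset). Chrna2, a nicotinic acetylcholine receptor subunit, stood at 0.802 to 2.51 CPM on chow and at 4.30 to 7.87 CPM on high fat, and rose by 1.84 ± 0.25 and 1.59 ± 0.24 (adjusted p = 0.00108 and 0.00132).

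Nppa, the atrial natriuretic peptide, stood at 151, 109, 128, 138 and 91.5 CPM on chow and at 37.6, 64.8, 49.5, 86.4 and 69.9 CPM on high fat. High-fat female 4 came closest to the lowest chow library, and the groups did not overlap. It fell by 1.0 ± 0.23 (adjusted p = 0.0266) and by 1.29 ± 0.23 (adjusted p = 0.00348). Leaving out 1 of chow females 1 and 4 or high-fat female 3 ended the first call, and reads of the antisense gene Gm13054 were not separated. The other tested atrial markers, Myl7 and Myl4, were not called. Nor were Nppb, the other natriuretic peptide of the list (-0.41 and -0.66, adjusted p = 0.289 and 0.0723), or the myosin heavy chains Myh6 (-0.05 and -0.12) and Myh7 (-0.33 and -0.18). Tnnt2, cardiac troponin T, fell by 0.31 ± 0.06 and 0.33 ± 0.06 (adjusted p = 0.014 and 0.00599), from 14221 to 16536 CPM on chow to 11749 to 13741 CPM on high fat, and the second call ended without high-fat female 2. Of 26 sarcomere and Z-disc genes 1 other was called in both fits, Flnc, and it rose (0.34 ± 0.07 and 0.27 ± 0.07). Flnc was not called in both fits with the GC offset. Its first call ended without chow female 4 and its second without high-fat females 2 or 3. Without females 4 and 5, 7 of the 26 were called lower.

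Other large falls came from genes with a range of roles. Gnb3, a G protein beta subunit, stood at 9.04 to 15.1 CPM on chow and at 3.74 to 7.53 CPM on high fat, a change of -1.23 ± 0.20 and -1.07 ± 0.20 (adjusted p = 0.00432 and 0.00523). Scgb1c1, a secretoglobin, fell by 1.12 ± 0.17 and 1.19 ± 0.19, with reads not separated from the antisense gene C330022C24Rik. Lrrc4b, a synaptic adhesion protein, fell by 0.95 ± 0.14 and 1.0 ± 0.16, and Sv2a, a synaptic vesicle protein, by 0.64 ± 0.15 and 0.74 ± 0.16. The calls of Sv2a ended without chow females 4 or 5 or high-fat females 2 or 4 in the first fit and without high-fat females 1 or 2 in the second. Arntl, the clock gene that encodes BMAL1, stood at 8.90 to 14.6 CPM on chow and at 6.54 to 10.4 CPM on high fat, and fell by 0.65 ± 0.14 and 0.54 ± 0.15 (adjusted p = 0.0235 and 0.049), calls that ended without chow females 1 or 3 in either fit. The first call also ended without high-fat female 4, and the second without chow female 5 or high-fat females 2 or 3. Arntl was the only 1 of 22 clock genes called in both fits, and Dbp, a clock output gene, had 0.27 and 0.04.

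Neat1, the nuclear RNA that builds paraspeckles, stood at 798, 726, 689.7, 679 and 702 CPM on chow and at 391, 501, 493, 168 and 112 CPM on high fat. Females 4 and 5 were far below the other 3, which in turn lay below every chow female. It fell by 1.11 ± 0.29 with all 5 females (adjusted p = 0.047), a call that ended without any single chow female or high-fat female 4, and by 0.64 ± 0.10 without females 4 and 5 (adjusted p = 0.00132). Malat1, another nuclear RNA, stood at 117 and 63.9 CPM in females 4 and 5 and at 1132 to 1533 CPM in the other 8 female libraries, and was not called in either fit. Of 12 tested nuclear long non-coding RNAs only Neat1 was called.

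**Figure D5:**
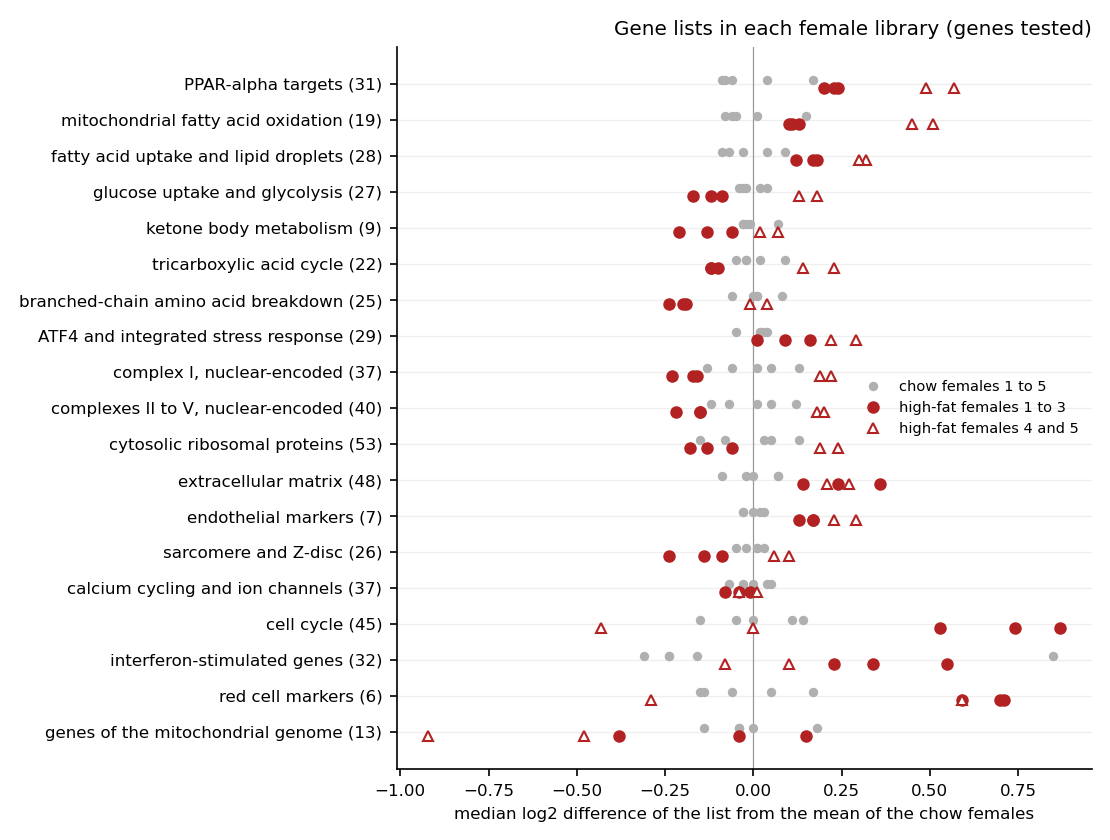
Median log2 difference of 19 gene lists from the mean of the chow females, per library, with chow in grey, high-fat females 1 to 3 as filled red points and females 4 and 5 as open triangles. Cell cycle genes lie at 0.53 to 0.87 in females 1 to 3 against 0.00 and -0.43 in females 4 and 5, while matrix genes lie at 0.14 to 0.36 in all 5.

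Some lists had most of their calls when females 4 and 5 were left out, and the cell cycle list had the most. Mki67, the proliferation marker Ki-67, stood at 1.76, 2.28, 2.74, 2.53 and 2.27 CPM on chow and at 6.59, 7.71, 6.64, 0.124 and 0.197 CPM on high fat. Females 1, 2 and 3 were above every chow female, and females 4 and 5 were below every chow female. It rose by 1.59 ± 0.19 without females 4 and 5 (adjusted p = 1.42e-04), and with all 5 its change was 0.88 ± 0.66 (adjusted p = 0.474). Top2a, a topoisomerase of dividing cells, showed the same split, with 2.72 to 4.84 CPM on chow, 8.22, 11.7 and 10.1 CPM in females 1, 2 and 3, and 1.60 and 0.684 CPM in females 4 and 5. Under the GC offset the change of Mki67 with all 5 females was again 0.88 (adjusted p = 0.406). Of 45 cell cycle genes 27 rose without females 4 and 5, and 1, the replication licensing gene Mcm2, rose in both fits (0.43 ± 0.09 and 0.42 ± 0.10), with calls that ended without chow females 4 or 5 in the first and without high-fat females 1, 2 or 3 in the second.

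Genes of oxidative phosphorylation and red cells also had more calls when females 4 and 5 were left out. Of 37 nuclear genes of complex I, 13 fell without females 4 and 5 and none in both fits, with list medians of -0.17, -0.23 and -0.16 in females 1, 2 and 3 and 0.19 and 0.22 in females 4 and 5. The medians of the chow females ran from -0.13 to 0.13, so those of high-fat females 1 and 3 were only just below them. Of 40 genes of complexes II to V, 11 fell without females 4 and 5 and none in both. Of 6 red cell markers 5 rose without females 4 and 5, and 1, the anion exchanger Slc4a1, rose in both (by 1.92 ± 0.38 and 2.17 ± 0.39; 0.0567 to 0.207 CPM on chow and 0.207 to 0.821 CPM on high fat). The second call of Slc4a1 ended without high-fat female 2. The red cell list's median was 0.59, 0.71, 0.70, -0.29 and 0.59 in high-fat females 1 to 5, with only female 4 apart. Hbb-bs, a beta globin whose near-identical copies share reads, stood at 139.8, 158, 152, 149 and 177 CPM on chow and at 213, 247, 245, 132 and 225 CPM on high fat, so that only female 4 was not above the chow range. Its change was 0.45 ± 0.14 (adjusted p = 0.087) with all 5 females and 0.59 ± 0.10 (adjusted p = 0.00243) without females 4 and 5. Ptgds, the lipocalin-type prostaglandin D synthase, stood at 186 to 306 CPM on chow, at 99.6, 77.0 and 74.5 CPM in females 1, 2 and 3 and at 159.9 and 268 CPM in females 4 and 5, and was called lower only without the last 2 (-1.56 ± 0.16, adjusted p = 2.27e-05).

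In all, 587 genes were called only without females 4 and 5, and 550 of the 586 that both fits tested had the same sign in both. The 138 genes called only with all 5 females had the same sign in both fits, with a median GC content of 54.3% in their 105 rises and 45.1% in their 33 falls. Because the fits share most of their libraries, equal signs are not separate support. Lists with no call in either fit included cytosolic heat shock proteins, mitochondrial biogenesis and the PGC-1 and ERR regulators, insulin signalling and the 13 protein-coding genes of the mitochondrial genome, a list that leaves out its ribosomal and transfer RNA genes such as mt-Rnr1 and mt-Tf. Of 30 tested inflammation genes none was called in both fits. Of 32 interferon-stimulated genes 1, Isg20, rose in both fits (0.50 and 0.59), without a call in both under the GC offset. Its first call ended without chow females 1, 2, 4 or 5 or high-fat females 2 or 3, and its second without high-fat female 3. Chow female 3 held 1022 CPM over that list against 363 to 407 CPM in the other chow females and 356 to 625 CPM in the high-fat females.

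The male hearts give the same diet contrast in libraries without the GC pattern. On chow, clock genes stood at unlike levels in the sexes, with Dbp at a mean of 91.8 CPM in females and 8.95 CPM in males. Arntl stood at 11.8 CPM in females and 37.6 CPM in males, and the hour of collection is not given. There were 138 genes called for diet in males in the fit of all libraries (0.764% of 18069) and 474 when high-fat females 4 and 5 were left out (2.59% of 18297). The sexes share no libraries but share the estimate of spread. Of the 319 genes called in both female fits, 48 were called in males in the same direction in the fit of all libraries. They make 15.0% of the female list and 34.8% of the male list, and in that fit none was called in the opposite direction. With the second male count the overlap in the same direction was 87 genes, 27.3% of the female and 18.4% of the male list. Of the 196 rises 158 had the same sign in males, with a median male change of 0.10, and of the 123 falls 100, with a median of -0.15. The share of all tested genes with the same sign in both sexes is not given here, so these counts have no background beside them.

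Single genes differed in how close the sexes lay. In males Acot2 changed by 0.99, Decr1 by 0.51, Gpam by 0.69, Scn4b by 0.75, Slc2a1 by -0.60, Oxct1 by -0.37 and Abat by -1.14, all called. Pdk4 changed by 2.48 and Cyp1a1 by 4.31 in males, above the female 1.45 and 2.70, but the difference between the sexes was not called (adjusted p = 0.207 and 0.156). Ucp3, an uncoupling protein homologue of mitochondria, and Angptl4, an inhibitor of lipoprotein lipase, were called in males (1.65 and 2.85) and not in females (0.58 and 0.97 with all 5, adjusted p = 0.0806 and 0.159), and their difference was not called either (adjusted p = 0.215 and 0.31). Their chow means were lower in males, at 32.5 CPM against 90.2 CPM in females for Ucp3 and 3.69 CPM against 10.7 CPM for Angptl4. On high fat the means were 102 CPM in males and 135 CPM in females for Ucp3, and 26.6 and 21.0 CPM for Angptl4. None of the 16 matrix genes was called in males, where Col1a1 had 0.05 and Col1a2 0.04, and the difference between the sexes had an adjusted p of 0.156 and 0.111 for these 2. By edgeR's test of the difference no gene was called in either fit, with 1839 genes at an unadjusted p under 0.05 with all 5 females and 2036 without females 4 and 5. Among the 319 genes, DESeq2 called 20 for this difference, limma with voom quality weights 8, and edgeR without high-fat female 1 called 3.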

How the data were processed

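PolyA-selected RNA of mouse hearts was sequenced on a NovaSeq, according to the labels. The authors deposited whole counts, not normalised, in 1 file per sample: 19 files give them for 425461 exon pieces, per the file headers, and the file of chow male 4 for 49315 genes, so that library was not used. The submitters' processing notes name Salmon 1.5.1, DESeq2 1.32.0 and GRCm39, but coordinates matched GENCODE vM21 (GRCm38) for 44225 of 48420 genes (91.3%). A read that spans several pieces may count more than once, so totals overstate reads. Whether counting used strand is not given in the sources used here, so antisense pairs were not separated.

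Piece counts were summed per gene. Of 33309 pieces with joined gene IDs 27829 belonged to a single gene, and 5480 were not used (1.35% to 1.49% of counts in female libraries). Genes passing edgeR's expression filter, 18069 with all libraries and 18297 without high-fat females 4 and 5, were tested in edgeR 4.0.16 (R 4.3.3) with TMM and the quasi-likelihood F-test, 1 model over the 4 groups and 19 libraries, with Benjamini-Hochberg adjustment over all genes tested. SE is the log2 change divided by the square root of F. The scripts were tested on simulated counts.

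Alternatives were DESeq2 1.42.0, limma 3.58.1 with voom quality weights, median-ratio size factors, no filter, a filter of 1 CPM in 5 libraries, a GC offset per library (a spline of 5 degrees of freedom), the largest exon piece of each gene, female libraries alone, a replicate block and each female library left out. Pieces of a single gene ID were tried after seeing the data.

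The comparison, the members, the 49 gene lists (994 symbols, all matched) and the tests were chosen with earlier results of these data known. Named genes are the 12 largest rises and falls called in both fits that average 1 CPM or more and carry an established symbol, of each list at most 4 members called in both fits (the 2 of smallest p where none was called), a fixed set of 24 genes, and the 5 largest changes called in only 1 fit. Of the genes so named the text gives those the results turn on. Some are not reported here. Other names, such as list members given as examples, were chosen after their values were seen.

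Replicate numbers are shared by the groups, but same-numbered libraries did not deviate together (r = 0.09, 0.06, -0.05, -0.03 and 0.15), so they were not treated as pairs.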

Additional observations from a re-analysis of the deposited data

Results flagged for a closer look

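In 18 cases 1 library lay far from the other 4 of its group by the gap between it and its nearest neighbour, a test that flags about 1 in 20 groups by chance. The naming rule gave 125 genes with 2 groups of females each, so many of these cases may be chance. Chow female 5 was such a library for 7 genes: it was highest for Acot1 (20.7 CPM), Acot2 (73.8 CPM), Ech1 (2338 CPM), Agpat3 (258 CPM) and Sv2a (7.15 CPM) and lowest for Cdh5 (139 CPM) and Kif28 (1.43 CPM). High-fat female 5 was highest for Ucp2 (191 CPM), Flnc (599 CPM), Trarg1 (2.13 CPM) and Sdf2l1 (4.42 CPM). High-fat female 2 was highest for Cth (2.42 CPM) and for Slc4a1 (0.821 CPM), and chow female 2 was highest of its own group for Slc4a1 (0.207 CPM). Chow female 4 was highest for mt-Co2 (51.1 CPM) and mt-Co3 (47.5 CPM), chow female 1 for Lss (5.0 CPM), and high-fat female 1 was lowest for Csf1r (47.9 CPM).

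Among the genes chosen by the naming rule, 5 were flagged for high-fat females and high-fat males lying on opposite sides of the chow means of their sex. In CPM the exception was high-fat female 1 for Csf1r, at 47.9 CPM against a chow female mean of 48.0 CPM. Other genes have fitted changes of opposite sign in the sexes without such a split. In none of the 5 was the difference between the sexes called by edgeR's quasi-likelihood test. The difference, female minus male on the log2 scale, was 0.64 for Mid1ip1 (adjusted p = 0.0952), -0.94 for mt-Co2 (adjusted p = 0.422), -0.72 for mt-Co3 (adjusted p = 0.392), 0.50 for the macrophage marker Cd68 (adjusted p = 0.258) and 0.30 for Csf1r (adjusted p = 0.31). For mt-Co2 and mt-Co3 the split rests on chow female 4 (51.1 and 47.5 CPM), which raised the mean of the chow females. The other chow females held 17.0 to 21.8 CPM of mt-Co2 and 19.2 to 25.8 CPM of mt-Co3. High-fat females 1 and 2 lay within these ranges.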

How the results depend on the processing

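Counts of called genes depended on the setting more than their directions did. With all 5 high-fat females, without females 4 and 5 and in both fits, where 457, 906 and 319 genes were called, DESeq2 called 970, 1606 and 601, voom quality weights 936, 1577 and 909, the largest exon piece 254, 380 and 169, and female libraries alone 21, 318 and 21. Without a filter the first and last counts were 195 and 174, and with the GC offset the first was 278. Leaving out 1 library moved the 3 counts to 219 (without chow female 4) to 909 (without high-fat female 1), to 285 (without high-fat female 2) to 1073 (without chow female 2), and to 102 (without high-fat female 3) to 325 (without high-fat female 5). The first count was 252 without chow female 1 and 278 without high-fat female 4, the second 369 without high-fat female 3, and the last 129 without high-fat female 2 and 190 without chow female 4. The cause of these shifts was not tested.

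With a replicate block, although it is not known that the numbers pair the samples, the counts were 98, 229 and 80. For the difference between the sexes among the 319 genes, where the main count was 0, DESeq2 called 20, voom quality weights 8, and leaving out 1 library 0 to 3. The other settings kept these counts within 1.5 times. A called value changed sign only with the GC offset, for Aldh6a1 (0.03) and mt-Tf (0.13) with all 5 females. Of the 319 genes 69 were called with each library left out in both fits, 58 of them also with the GC offset, and 97 overlap exons of a gene on the other strand. Some chow levels of Slc4a1, Adipoq, Ms4a1 and Cd8a lay within a few times the level of 3 counts (0.0385 to 0.0503 CPM) or below it, which limits the precision of their changes.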

Other observations

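Of the 319 genes called in both fits 256 were in none of the lists, and those below were chosen after their values were seen. Vwa8, a mitochondrial AAA ATPase, stood at 404, 388, 329.6, 364 and 394 CPM on chow and at 552, 547, 567, 675 and 722 CPM on high fat, and rose by 0.70 and 0.56 (edgeR adjusted p = 3.27e-04 and 5.91e-05). In males it rose by 0.60 (adjusted p = 0.00131). Further genes of lipid handling rose with it: Ephx2, the soluble epoxide hydrolase (0.59 and 0.38), the acyl-CoA synthetase Acsf2 (0.55 and 0.36), and Hsd17b11, a droplet-associated dehydrogenase (0.54 and 0.41). Fbp2, the muscle fructose bisphosphatase, rose by 0.68 and 0.48. The second calls of Hsd17b11 and Fbp2 each ended without high-fat female 1 or 3, and that of Fbp2 also without female 2.

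Genes of collagen processing outside the matrix list rose too. Serpinh1, the collagen chaperone HSP47, stood at 143, 155, 164, 154 and 162 CPM on chow and at 196, 191, 196, 205 and 215 CPM on high fat, a rise of 0.37 and 0.32 whose second call ended without high-fat females 1, 2 or 3. Its male change was -0.14, and the difference between the sexes was not called (adjusted p = 0.156). Fkbp10, a prolyl isomerase of procollagen, rose by 0.61 and 0.48 (the second ended without high-fat female 3), the basement membrane collagen Col18a1 by 0.48 and 0.54, and the matrix proteins Svep1 and Fndc1 by 0.58 and 0.52 with all 5 females and by 0.57 in each without females 4 and 5. Among the falls, Kyat3, a kynurenine aminotransferase, stood at 43.9 to 53.2 CPM on chow and at 31.1 to 42.4 CPM on high fat (-0.40 and -0.56), though it was not called in both fits with the GC offset, and Dcxr, the xylulose reductase, fell by 0.60 and 0.80 (adjusted p = 0.00761 and 1.09e-04).

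The mitochondrial ribosomal RNA mt-Rnr1 stood at 1509.9 to 1765 CPM on chow and at 1315, 1113, 891, 814 and 513 CPM in high-fat females 1 to 5. Its change was -0.81 and -0.56 (adjusted p = 0.0114 and 0.00103), and -0.01 with all 5 females under the GC offset (adjusted p = 0.984).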
